A study of Homo sapiens with 6 samples.

Results

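The proteasome genes described here are the 47 rows of the deposited count table whose symbol is PSMA, PSMB, PSMC, PSMD, PSME, PSMF or PSMG followed by a number, out of 30947 genes. They cover the subunits of the core particle and of its regulatory cap, the activators, 1 inhibitor and the assembly chaperones. The rule reads the symbol of a gene and none of its values. RNA was sequenced from Cal27 cells, a line from a human squamous carcinoma of the tongue, in 2 groups of 3 libraries. The knockdown group received a lentivirus against DAZAP1, an hnRNP-type protein that binds RNA and acts in splicing and translation. The control group is labelled as negative control, described in 1 place as empty vector and in another as a control sequence. Both groups were grown in the same high-glucose medium with serum. The labels name 1 cell line, do not say how many hairpins were used and do not tie the 3 libraries of a group to separate cultures or infections. The p-values below thus reflect only how far these libraries vary, which may be technical.

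Libraries held 16333542 to 17815862 counts in the knockdown and 18547236 to 18955230 in the control. DAZAP1 had 73.6, 77.8 and 67.5 CPM (counts scaled to a common library total) in the knockdown libraries, against 262.4, 277.9 and 256.9 CPM in the control libraries (log2 fold change −1.86 ± 0.038 SE, adjusted p = 1.67e-39, edgeR). Keratinocyte markers were present in all libraries, with KRT5 at 2147 ± 17.4 CPM in the knockdown and 1506 ± 34.1 CPM in the control and TP63 at 298.3 ± 6.92 and 303.3 ± 8.05 CPM (SD, n = 3 each). The 7 markers read, which include EPCAM and CDH1, summed to 3848 ± 28.5 CPM in the knockdown and 2885 ± 68.8 CPM in the control. Of the 7, 5 rose, most of all KRT17 (log2 1.23), EPCAM fell (−0.09) and TP63 did not pass. Of all 15374 genes tested, 26.9% rose and 27.4% fell at an adjusted p under 0.05 (edgeR). Leukocytes carry much immunoproteasome, so their markers were read as well. Of 10 such genes 8 had a row, and their summed level was 3.76 to 5.11 CPM in the knockdown and 1.55 to 3.0 CPM in the control. The defining gene PTPRC had 0, 0 and 1 counts in the knockdown and 2, 0 and 0 in the control. NKG7 had 1, 0 and 0 counts in the knockdown and was at 0 in all control libraries. CD3E had 6, 3 and 1 counts in the knockdown and 0, 0 and 1 in the control. The monocyte marker CD14 rose, with 43, 44 and 31 counts in the knockdown and 22, 11 and 17 in the control (log2 1.34, adjusted p = 0.000222, edgeR). Markers of fibroblasts and endothelium, 7 of 9 with a row, summed to 65.9 to 70.5 CPM in the knockdown and 25.9 to 29.9 CPM in the control, most of it from CDH5 (48.4 ± 3.27 and 14.4 ± 1.59 CPM). The part of these marker levels in the results below was not tested.

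The proteasome degrades proteins tagged with ubiquitin. Its barrel-shaped core, the 20S particle, stacks outer rings of alpha subunits, which gate the entrance, around inner rings of beta subunits, of which PSMB5, PSMB6 and PSMB7 carry the active sites. The 19S cap binds ubiquitin chains, removes them and unfolds the substrate with a ring of ATPases. Interferon induces PSMB8, PSMB9 and PSMB10, which replace PSMB5, PSMB6 and PSMB7 in newly built particles to form the immunoproteasome, and the activator PSME1/PSME2. These forms cut proteins into peptides suited to MHC class I molecules. In most cells the standard genes are expressed together, in part under the transcription factor NFE2L1.

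Most proteasome genes were lower in the knockdown, while the interferon-inducible ones were higher. Of the 47 genes 46 passed the filter on low counts. Among these 29 fell, 8 rose and 9 did not pass the test (edgeR quasi-likelihood test, Benjamini-Hochberg adjusted p under 0.05 over 15374 genes). That is 63.0% lower and 17.4% higher, beside 27.4% lower and 26.9% higher among all genes tested, of which 54.2% were called in either direction. The median log2 fold change of the 46 genes was −0.16, and that of all genes tested was 0.00. The groups did not overlap for 38 of the 46 genes, beside 58.9% of all genes tested. The falls were small, from −0.68 to −0.08 on the log2 scale with a median of −0.20, and 3 of the 29 reached 0.4 in size. Of the 8 rises 4 reached 0.4. CPM are shares of a library, so fewer transcripts per cell and more RNA of other genes cannot be told apart in these bulk samples.

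**Figure D1:**
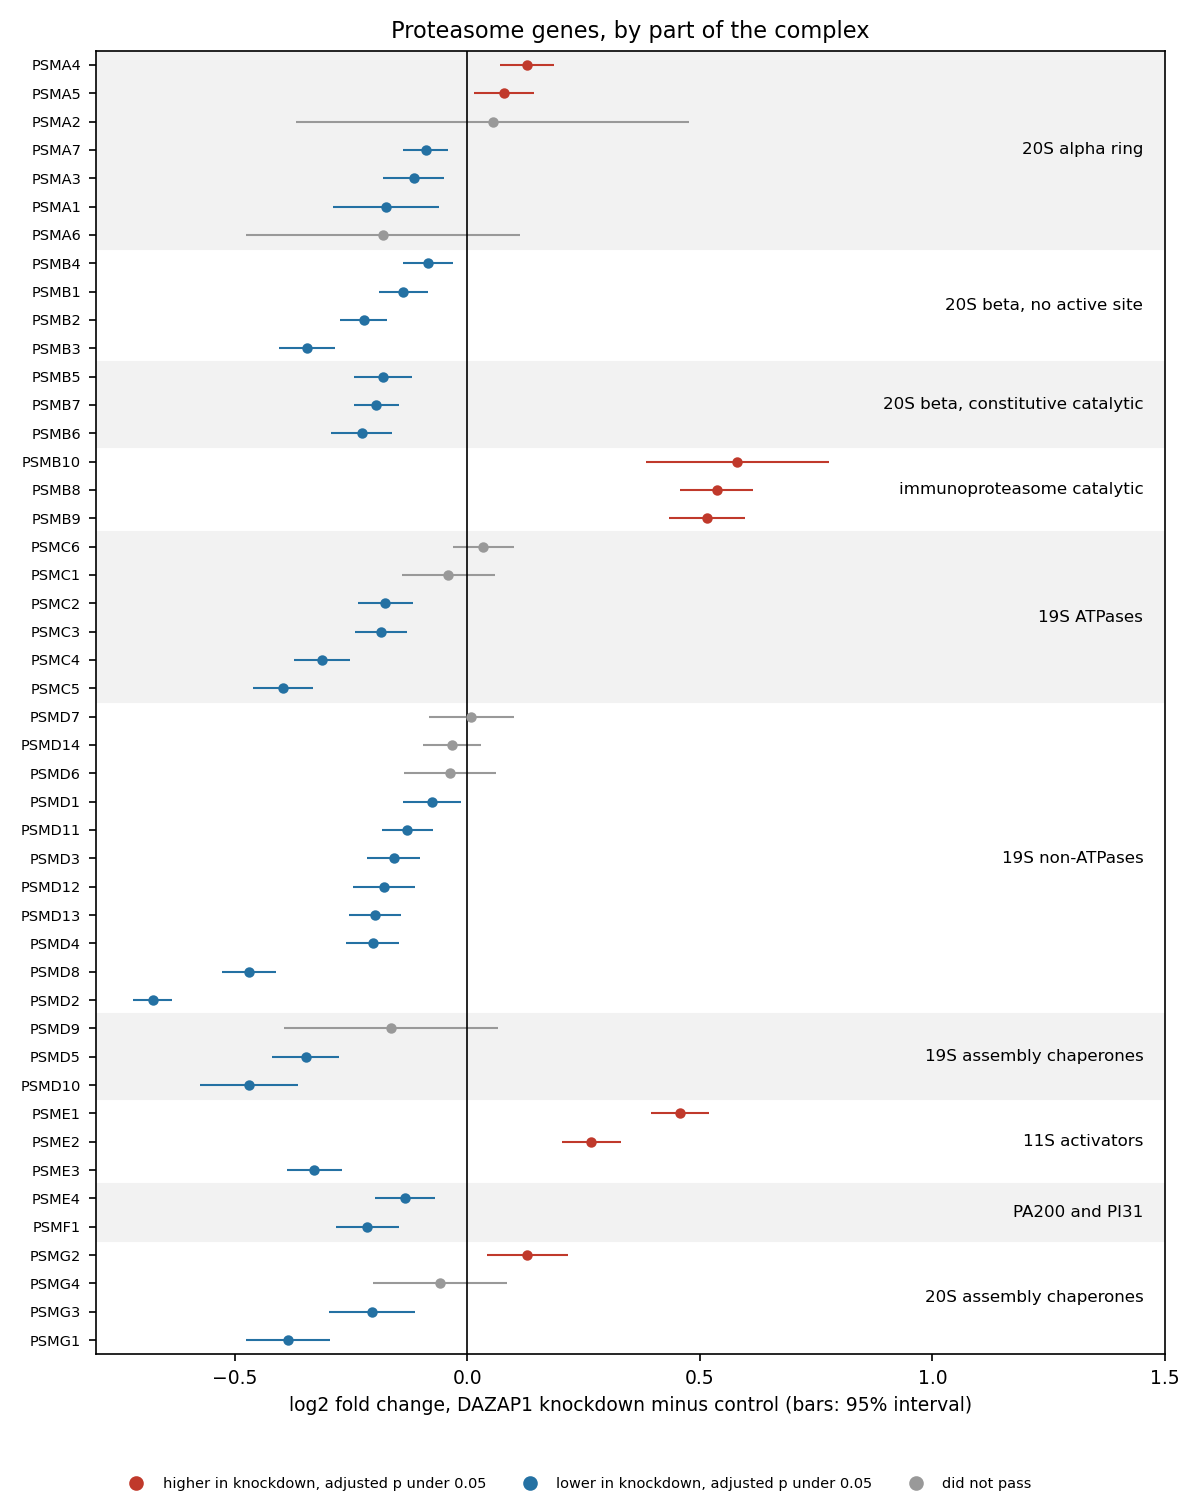
Log2 fold change of the 46 tested proteasome genes, knockdown minus control (x axis), grouped by part of the complex, with points for the estimate, bars for its 95% interval and colours for the call at an adjusted p under 0.05. The 3 immunoproteasome subunits and PSME1 stand at 0.46 to 0.58, and PSMD2 is lowest at −0.68.

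Summed over all 47 genes, proteasome transcripts made up 7861, 7788 and 7937 CPM in the knockdown libraries and 9014, 8977 and 8993 CPM in the control libraries, a difference of −12.6%. All 3 knockdown sums lay below all 3 control sums. The single gene PSMD2 contributed 44.0% of this difference, and without it the sum dropped by 8.28%.

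The catalytic subunits of the immunoproteasome rose by similar factors. PSMB8 (ENSG00000204264, chromosome 6, 32840717 to 32844679, minus strand, GRCh38.p13), which takes the place of PSMB5, had 115.5, 121.3 and 118.7 CPM in the knockdown libraries and 78.6, 82.2 and 84.1 CPM in the control libraries. Its log2 fold change was 0.54 ± 0.039 (SE; adjusted p = 5.29e-20, edgeR quasi-likelihood test). PSMB9 (ENSG00000240065, chromosome 6, 32844136 to 32859851, plus strand), which takes the place of PSMB6, had 109.6, 103.7 and 113.4 CPM in the knockdown and 75.8, 78.2 and 74.6 CPM in the control, a log2 fold change of 0.51 ± 0.041 (adjusted p = 3.37e-18, edgeR). The groups were far apart in both genes, and the lowest knockdown library stood above the highest control library. PSMB10 (ENSG00000205220, chromosome 16, 67934506 to 67936864, minus strand), which takes the place of PSMB7, was scarcer, with 17.3, 16.5 and 21.9 CPM in the knockdown and 12.1, 12.5 and 12.6 CPM in the control (log2 0.58 ± 0.099, adjusted p = 6.01e-07, edgeR). Knockdown replicate 3 was its highest library, and the other knockdown libraries also exceeded every control library. The thymus-specific subunit PSMB11 had 1 count in 1 of the 6 libraries and was not tested.

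The 3 subunits they replace fell. PSMB5, which holds the chymotrypsin-like site (ENSG00000100804, chromosome 14, 23016543 to 23035230), had 186.4, 175.8 and 175.8 CPM in the knockdown and 210.9, 204.2 and 195.5 CPM in the control (log2 −0.18 ± 0.031 SE, adjusted p = 7.15e-07, edgeR). PSMB6, with the caspase-like site (chromosome 17, 4796144 to 4798502), had 143.8, 144.2 and 137.1 CPM in the knockdown and 168.1, 165.5 and 164.4 CPM in the control (log2 −0.23 ± 0.033, adjusted p = 7.68e-09, edgeR). PSMB7, with the trypsin-like site (chromosome 9, 124353465 to 124415444), had 402.2, 402.2 and 418.4 CPM in the knockdown and 472.7, 465.8 and 462.3 CPM in the control (log2 −0.20 ± 0.024, adjusted p = 8.21e-11, edgeR). In all 3 genes every knockdown library was below every control library.

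**Figure D2:**
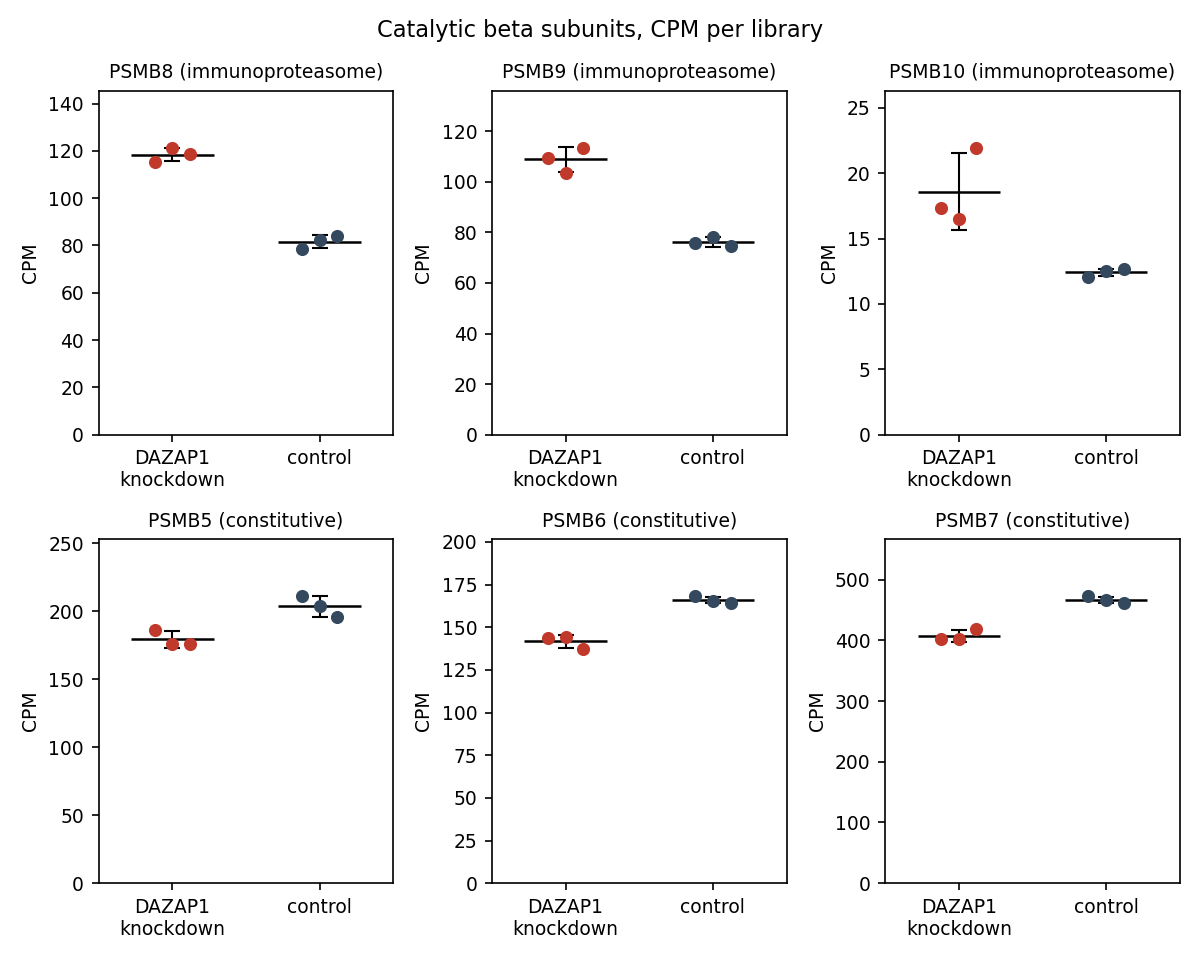
CPM of the 3 immunoproteasome (top) and 3 constitutive (bottom) catalytic subunits in each library (points), with the group mean and SD (black), knockdown left and control right, on axes that start at 0. PSMB8, PSMB9 and PSMB10 are higher and PSMB5, PSMB6 and PSMB7 lower in the knockdown, with no overlap between groups.

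The genes of each pair were set against each other in FPKM, counts divided by gene length and library total. The balance of each pair moved towards the immunoproteasome gene, which remained the minor form. The lengths implied by the deposited values were 3481 and 3339 bases for PSMB8 and PSMB9, and 1549 and 1447 bases for PSMB5 and PSMB6. The shares and sums of FPKM depend on these gene lengths, which need not be those of the transcripts present. The change of a ratio between the groups does not. PSMB8 made up 21.6, 23.5 and 23.1% of the summed FPKM of PSMB8 and PSMB5 in the knockdown libraries and 14.2, 15.2 and 16.1% in the control libraries. PSMB9 made up 24.8, 23.8 and 26.4% of its pair with PSMB6 in the knockdown and 16.4, 17.0 and 16.4% in the control. PSMB10 made up 4.52, 4.32 and 5.45% of its pair with PSMB7 in the knockdown and 2.73, 2.87 and 2.92% in the control. The level of PSMB10 is uncertain, since 34.8% of its exon bases are shared with another protein-coding gene of the same strand. In each of the 3 pairs all knockdown shares exceeded all control shares. The ratio within a pair was 1.65, 1.67 and 1.70 times as high in the knockdown as in the control, log2 differences of 0.72 ± 0.076, 0.74 ± 0.063 and 0.77 ± 0.11 (SE). Each gave an exact two-sided permutation p of 0.1, which is the smallest that 3 libraries against 3 allow, and 0.1 after adjustment over the 3 pairs, so none could pass 0.05. Over all 6 genes the immunoproteasome share was 14.7, 14.8 and 15.6% in the knockdown and 9.26, 9.75 and 9.82% in the control. The immunoproteasome genes gained 25.8 FPKM while the constitutive genes differed by −53.8 FPKM, so the sum of the 6 was 525.2 ± 4.66 FPKM in the knockdown and 553.3 ± 8.17 FPKM in the control (SD, n = 3 each).

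**Figure D3:**
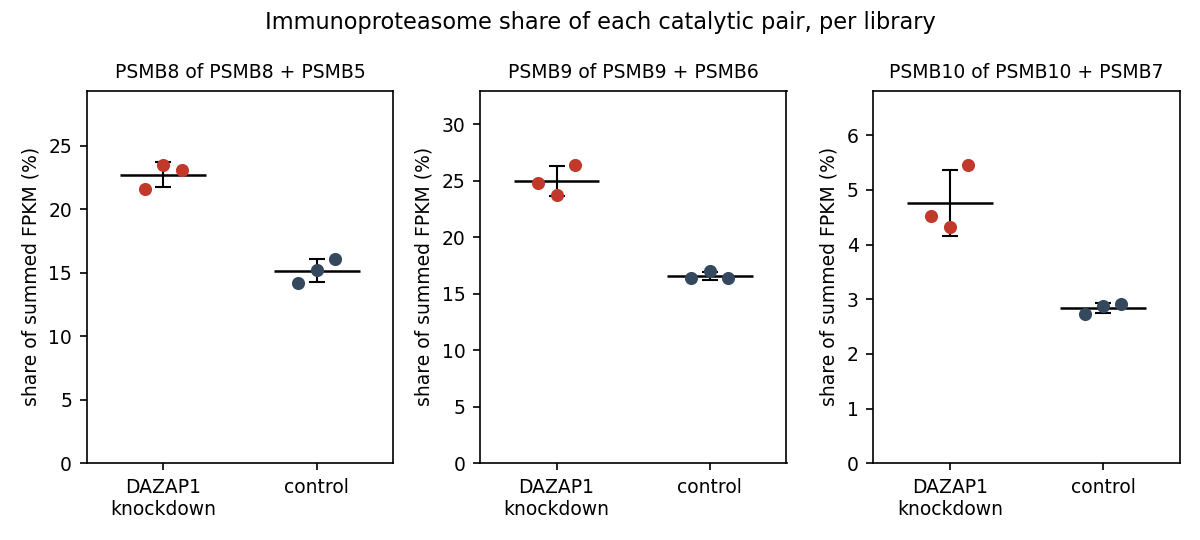
Share of the immunoproteasome gene in the summed FPKM of each catalytic pair (percent), per library (points) with mean and SD (black), knockdown left and control right. The shares are 21.6 to 23.5% against 14.2 to 16.1% for PSMB8, 23.8 to 26.4% against 16.4 to 17.0% for PSMB9 and 4.32 to 5.45% against 2.73 to 2.92% for PSMB10.

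By their deposited spans PSMB8 and PSMB9 start close together in the MHC region and share 544 bases on opposite strands. The span given for PSMB9 also covers the whole of TAP1, the MHC peptide transporter gene on the opposite strand, with 8608 shared bases. In GENCODE 29, 20.6% of the exon bases of PSMB8 are shared with PSMB9 or PSMB8-AS1 on the opposite strand, and 4.52% of those of PSMB9 with PSMB8. A further 5.66% of the exon bases of PSMB9 are shared with PSMB8-AS1 on the same strand, where counting by strand would not separate them. Whether reads were counted by strand is not stated by the sources used here. Reads from the exon bases that PSMB8, PSMB9 and PSMB8-AS1 share thus cannot be assigned here. TAP1 is not among the genes that share exon bases with PSMB9 in GENCODE 29. TAP1 itself had 143.0, 142.7 and 143.2 CPM in the knockdown and 78.7, 76.2 and 80.4 CPM in the control (log2 0.87), and PSMB8-AS1 averaged 3.48 ± 0.528 CPM in the knockdown and 2.32 ± 0.594 CPM in the control (SD, n = 3 each). Of the exon bases of PSMB10, 34.8% are shared with another protein-coding gene of the same strand.

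The paired activators that open the core for peptide production rose with the immunoproteasome. PSME1 (ENSG00000092010, chromosome 14, 24136163 to 24138967, plus strand) had 214.8, 203.4 and 208.5 CPM in the knockdown and 149.8, 158.5 and 148.4 CPM in the control (log2 0.46 ± 0.031 SE, adjusted p = 2.23e-21, edgeR). PSME2 (ENSG00000100911, chromosome 14, 24143362 to 24147570, minus strand) had 172.4, 168.0 and 168.8 CPM in the knockdown and 142.4, 140.4 and 140.5 CPM in the control (log2 0.27 ± 0.032, adjusted p = 3.84e-11, edgeR). Their genes lie 4394 bases apart. EMC9, a membrane insertion factor gene between them that was chosen after its value was seen, averaged 10.2 ± 1.07 CPM in the knockdown and 15.8 ± 1.36 CPM in the control (log2 −0.64). PSME3, a nuclear activator of the same family that is not interferon-induced, fell, with 211.9, 194.3 and 207.9 CPM in the knockdown and 253.4, 262.5 and 255.9 CPM in the control (log2 −0.33 ± 0.029, adjusted p = 4.03e-16, edgeR).

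Promoter sequences of RefSeq (GRCh38.p14, 250 bases before to 50 after each start site) were available for 41 of the 47 genes. PSMA7, PSMB1, PSMB6, PSMB7, PSMD4 and PSMG3 had none. The core of the interferon-stimulated response element, which is GAAA, then 2 bases of any kind, then GAAA, on either strand, occurred in 7 of the 41 (17.1%) and in 4.38% of 27305 genes with a promoter. Of the 7 genes 5 rose, 1 fell and 1 did not pass, beside 17.4% higher and 63.0% lower among the 46 tested proteasome genes. The 7 matches are shown so that they can be compared. Each line gives 30 bases 5′ to 3′ on the gene's strand, with the match in capitals.
PSMB8, chr6:32844032-32844061, minus: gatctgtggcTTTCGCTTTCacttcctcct
PSMB10, chr16:67936852-67936881, minus: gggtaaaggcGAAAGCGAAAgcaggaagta
PSME1, chr14:24136189-24136218, plus: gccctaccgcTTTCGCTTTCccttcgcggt
PSME2, chr14:24146619-24146648, minus: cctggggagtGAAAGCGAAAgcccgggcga
PSMG4, chr6:3258904-3258933, plus: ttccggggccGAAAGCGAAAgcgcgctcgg
PSMA4, chr15:78540155-78540184, plus: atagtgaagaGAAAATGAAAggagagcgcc
PSMB4, chr1:151399495-151399524, plus: tcgtctacagGAAAAAGAAAgaaatgacac

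The first 5 carried the same 10 letters, GAAAGCGAAA, in either orientation, and their matches began at −4, −21, 6, −28 and −33 relative to the start site in the order shown. PSMB8 has 2 start sites among these promoters, and the match lies at 1 of them. PSMA4 has 3 start sites, and its match lies at 1 of them, at −240. The match of PSMB4 began at −68. The exact letters, searched after the matches had been seen, were found in 0.125% of genes (34 of 27305). Among the 5 proteasome genes PSMB8, PSMB10, PSME1 and PSME2 rose and the assembly chaperone gene PSMG4 did not pass. Among the other 29 genes with these letters 23 were tested, of which 10 rose, 5 fell and 8 did not pass. Over all genes tested 26.9% were higher and 27.4% lower. Some of the 23, such as TAP1 and PSMB8-AS1, are neighbours of the proteasome genes. Where promoter windows overlap, the same site may be counted again, so the 23 need not be separate instances. PSMB9 had no match in its window. The gamma-activated site TTCNNNGAA was found in 7 of the 41 proteasome genes (17.1%) and 9.38% of all genes, and 1 of the 7 rose and 5 fell. The antioxidant response element core TGACNNNGC, to which NFE2L1 and NFE2L2 bind, was found in 15 (36.6%) and in 16.1% of all genes, and 5 of the 15 rose and 9 fell. For comparison, 17.4% of the 46 tested proteasome genes rose and 63.0% fell. No match to the response element core overlapped one of the other motifs in these promoters. A match of letters is no evidence of binding, and genes with several start sites had more sequence searched.

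By summed level the alpha ring differed least of all parts. Of its 7 measured genes 3 fell, 2 rose and 2 did not pass, beside 27.4% lower and 26.9% higher among all genes tested. Their summed level was 1017, 1025 and 1031 CPM in the knockdown and 1046, 1041 and 1043 CPM in the control, a difference of −1.79%. PSMA4, whose counterpart in yeast helps close the gate of the core, had 232.3, 244.1 and 229.4 CPM in the knockdown and 211.7, 212.1 and 222.3 CPM in the control (log2 0.13 ± 0.029 SE, adjusted p = 0.000141, edgeR). PSMA7, the alpha subunit with the most counts, had 436.5, 433.3 and 449.6 CPM in the knockdown and 465.3, 476.0 and 463.1 CPM in the control (log2 −0.09 ± 0.024, adjusted p = 0.000933, edgeR). The groups did not overlap in either gene, but in PSMA4 the closest libraries were only 229.4 and 222.3 CPM. PSMA3 (log2 −0.12) and PSMA1 (−0.18) fell and PSMA5 rose by 0.08. The call of PSMA1 was lost without control replicate 1 (adjusted p = 0.181, edgeR), and with upper-quartile scaling those of PSMA1, PSMA3 and PSMA7 were lost at log2 −0.13, −0.07 and −0.04. That of PSMA5 was lost when any library other than knockdown replicate 2 was left out (adjusted p = 0.0653 to 0.140, edgeR). It was also lost with DESeq2 (adjusted p = 0.0874) and without the filter on low counts (adjusted p = 0.0672, edgeR). In all it was lost under 8 of the 18 alternatives listed below.

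PSMA2 and PSMA6 had few counts and wide intervals. PSMA2 had 69, 42 and 52 counts in the knockdown and 47, 53 and 69 in the control (log2 0.05, 95% interval −0.37 to 0.48), and PSMA6 had 102, 90 and 95 counts in the knockdown and 110, 108 and 133 in the control (log2 −0.18, 95% interval −0.48 to 0.11). Every core particle contains one of each alpha subunit per ring, yet per length these genes averaged 0.379 and 0.864 FPKM in the knockdown and 0.357 and 0.956 FPKM in the control, while PSMA7 averaged 253.7 and 263.5 FPKM. The lengths implied for PSMA2, PSMA6 and PSMA7 were 8380, 6507 and 1752 bases. FPKM depend on these lengths, which need not be those of the transcripts present. In GENCODE 29, 5 of the 46 tested genes share exon bases with a protein-coding gene of the same strand. These are PSMA1 (24.7% of its exon bases), PSMA2 (14.6%), PSMA6 (14.1%), PSMB10 (34.8%) and PSMD9 (19.9%). Their median level was 1.08 FPKM in the knockdown and 1.18 FPKM in the control, with a highest mean of 14.6 and 16.1 FPKM. The other 41 genes had a median of 34.4 FPKM in the knockdown and 40.5 FPKM in the control. This division was made after the levels had been seen. How the authors assigned reads shared by such genes is not stated by the sources used here, and its part in these levels was not tested. The levels of these 5 genes are therefore uncertain.

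**Figure D4:**
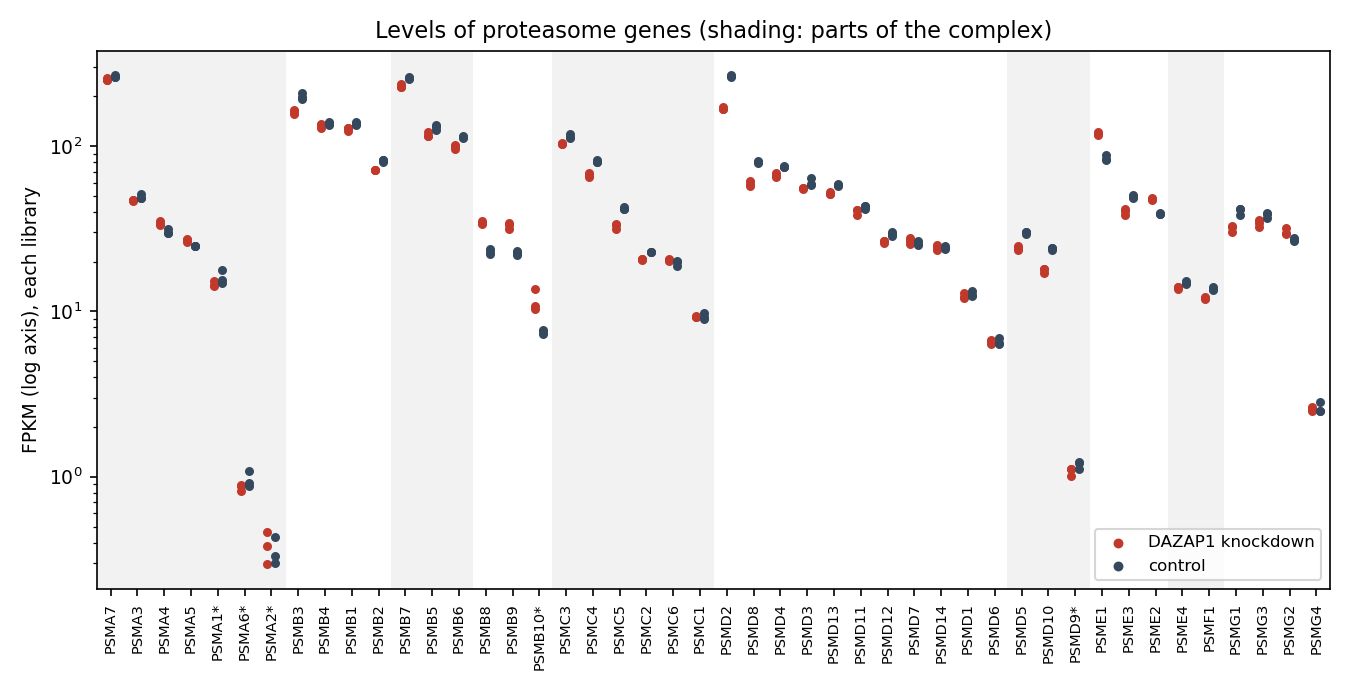
FPKM on a log axis of each tested proteasome gene in each library (points, knockdown left and control right of each tick), with shading for alternate parts of the complex. An asterisk marks the 5 genes that share exon bases with a same-strand protein-coding gene, among them PSMA2, PSMA6 and PSMD9 with group means of 0.357 to 1.18 FPKM.

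The 4 beta subunits without an active site all fell, beside 27.4% of all genes tested. PSMB3 (chromosome 17, 38752741 to 38764225) had 188.0, 179.9 and 190.2 CPM in the knockdown and 246.3, 233.4 and 229.1 CPM in the control (log2 −0.34 ± 0.030 SE, adjusted p = 1.51e-16, edgeR). PSMB2 had 319.1, 319.1 and 321.1 CPM in the knockdown and 375.8, 377.3 and 366.9 CPM in the control (log2 −0.22 ± 0.025, adjusted p = 3.51e-12, edgeR). The libraries of PSMB2 were tight within each group and wide apart between them. PSMB1 fell by 0.14 on the log2 scale and PSMB4 by 0.09. The call of PSMB4 was lost without knockdown replicate 2 (adjusted p = 0.0828, edgeR) and under other scalings, among them upper-quartile scaling, where its log2 fold change was −0.04.

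Among the ATPases of the 19S cap, which unfold substrates and thread them into the core, 4 of 6 fell and 2 did not pass. Of all genes tested 27.4% were lower. PSMC5 (chromosome 17, 63827152 to 63832026) had 133.3, 141.1 and 142.1 CPM in the knockdown and 180.1, 186.8 and 181.5 CPM in the control (log2 −0.40 ± 0.032 SE, adjusted p = 8.56e-18, edgeR). PSMC4 (chromosome 19, 39971165 to 39981764) had 163.9, 168.7 and 172.8 CPM in the knockdown and 207.8, 212.1 and 207.5 CPM in the control (log2 −0.31 ± 0.030, adjusted p = 1.2e-14, edgeR). The groups were well separated in both. PSMC3 (−0.19) and PSMC2 (−0.18) fell less. PSMC1 (log2 −0.04, 95% interval −0.14 to 0.06) and PSMC6 (0.03, −0.03 to 0.10) did not pass. In GENCODE 29, 75.8% of the exon bases of PSMC1 are shared with NRDE2 and 19.5% of those of PSMC5 with FTSJ3, both on the opposite strand. NRDE2 averaged 7.19 ± 0.754 CPM in the knockdown and 8.50 ± 0.953 CPM in the control, and FTSJ3 96.9 ± 1.83 and 109.0 ± 7.56 CPM (SD, n = 3 each).

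The other cap subunits mostly fell, and the deepest fall of all proteasome genes, that of PSMD2, was among them. PSMD2 (ENSG00000175166, chromosome 3, 184299198 to 184309050), the scaffold of the cap that docks ubiquitin shuttle proteins, had the most counts of all proteasome genes. It had 826.7, 823.9 and 842.5 CPM in the knockdown libraries and 1334, 1307 and 1346 CPM in the control libraries. The mean was 1.60 times as high in the control (log2 −0.68 ± 0.021 SE, adjusted p = 1.27e-41, edgeR). The gap between the groups was many times the spread within them. PSMD8 (chromosome 19, 38374550 to 38383824), a subunit of the lid, had 188.5, 176.2 and 181.6 CPM in the knockdown and 252.3, 256.0 and 248.5 CPM in the control (log2 −0.47 ± 0.029, adjusted p = 1.19e-23, edgeR). Of the 11 genes 8 fell and 3 did not pass, beside 27.4% lower among all genes tested. The ubiquitin receptor PSMD4 (−0.20), PSMD13 (−0.20), PSMD12 (−0.18), PSMD3 (−0.16), PSMD11 (−0.13) and PSMD1 (−0.08) fell by less than PSMD8. The call of PSMD1 was lost without knockdown replicate 1, knockdown replicate 3 or control replicate 3 (adjusted p = 0.140, 0.199 and 0.188, edgeR), and its groups overlapped. With upper-quartile scaling PSMD1 was at −0.03. Its call was lost under 10 of the 18 alternatives, among them DESeq2 (adjusted p = 0.0972). PSMD11 lost its call in the limma fits on log2 FPKM with a pseudocount of 1 or 0.1 (adjusted p = 0.0528 and 0.0521). The deubiquitinase PSMD14 (log2 −0.03, 95% interval −0.10 to 0.03), its partner PSMD7 (0.01, −0.08 to 0.10) and PSMD6 (−0.04, −0.14 to 0.06) did not pass, so for these 3 a fall as deep as that of PSMD8 lies outside the interval.

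Chaperones that assemble the particle were mostly lower. PSMD10, also known as gankyrin, and PSMD5 bind ATPases of the cap during its assembly. PSMD10 (chromosome X, 108084207 to 108091549) had 42.5, 42.9 and 40.2 CPM in the knockdown and 58.8, 56.6 and 58.7 CPM in the control (log2 −0.47 ± 0.053 SE, adjusted p = 3.72e-12, edgeR). PSMD5 had 102.9, 104.9 and 108.0 CPM in the knockdown and 135.0, 131.8 and 135.1 CPM in the control (log2 −0.35 ± 0.036, adjusted p = 1.65e-13, edgeR). All knockdown libraries lay below all control libraries in both genes. The third chaperone of the cap, PSMD9, had 159, 166 and 159 counts in the knockdown and 199, 185 and 201 in the control and did not pass (log2 −0.16, 95% interval −0.40 to 0.07).

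Of the chaperones of the core, PSMG1 had 69.8, 63.9 and 69.3 CPM in the knockdown and 90.8, 91.1 and 83.4 CPM in the control (log2 −0.39 ± 0.045 SE, adjusted p = 1.66e-11, edgeR). Its dimer partner PSMG2 went the other way, with 81.3, 80.7 and 87.6 CPM in the knockdown and 74.7, 75.6 and 77.9 CPM in the control (log2 0.13 ± 0.044, adjusted p = 0.00994, edgeR). The rise of PSMG2 was no longer called without knockdown replicate 3 (adjusted p = 0.123, edgeR) or control replicate 1 (adjusted p = 0.0504, edgeR). PSMG3 had 69.6, 66.8 and 63.1 CPM in the knockdown and 78.9, 73.6 and 77.8 CPM in the control (log2 −0.21 ± 0.046, adjusted p = 0.000105, edgeR), and its partner PSMG4 did not pass (log2 −0.06, 95% interval −0.20 to 0.09).

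The remaining regulators fell too. PSME4, the large activator also called PA200, had 140.0, 143.5 and 144.9 CPM in the knockdown and 153.8, 160.8 and 155.4 CPM in the control (log2 −0.13 ± 0.033 SE, adjusted p = 0.000348, edgeR). PSMF1, which encodes the inhibitor PI31, had 122.0, 125.3 and 123.8 CPM in the knockdown and 143.3, 140.5 and 146.8 CPM in the control (log2 −0.22 ± 0.034, adjusted p = 1.32e-07, edgeR). Neither gene had overlapping groups.

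Genes that work with the proteasome but bear other names were mostly lower as well. Their counts stand beside 27.4% lower and 26.9% higher among all genes tested. Of 14 other parts and partners, among them the ubiquitin receptor ADRM1, the small cap subunit SEM1 and the core assembly factor POMP, 10 fell, 1 rose and 3 did not pass, with a median log2 fold change of −0.16. PITHD1, a PITH-domain protein, had 44.1, 41.9 and 41.0 CPM in the knockdown and 76.8, 72.6 and 71.8 CPM in the control (log2 −0.80 ± 0.051 SE, adjusted p = 3.01e-23, edgeR). FBXO7, a binding partner of PSMF1 (−0.36), the cap deubiquitinase USP14 (−0.19) and the cap chaperone PAAF1 (−0.42) fell as well. Of 11 measured shuttle and VCP genes 7 fell, 1 rose and 3 did not pass. RAD23B, a shuttle that carries ubiquitin chains to the cap, averaged 452.9 ± 11.7 CPM in the knockdown and 581.8 ± 8.69 CPM in the control (SD, n = 3 each; log2 −0.36), and the VCP cofactors NPLOC4 (−0.16) and UFD1 (−0.21) fell. All 6 genes of ubiquitin and its activating enzymes fell, with a median of −0.22. They included UBA1, the main activating enzyme (−0.30), UBA6 (−0.35) and RPS27A (−0.24), which encodes ubiquitin fused to a ribosomal protein.

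The genes of the NFE2L1 pathway, which drives proteasome genes when degradation is short, were divided, with 5 of 8 higher and 3 lower. The shares over all genes tested were 26.9% higher and 27.4% lower. NFE2L1 had 313.1, 324.6 and 315.1 CPM in the knockdown and 252.7, 247.0 and 259.6 CPM in the control (log2 0.33 ± 0.027 SE, adjusted p = 9.86e-18, edgeR). SEL1L, part of the ER machinery that moves NFE2L1 to the cytosol, rose by 0.66 on the log2 scale. The small MAF proteins that pair with it differed in direction, with MAFK at −0.70 and MAFF at −0.48 lower and MAFG, chosen after its value was seen, higher at 0.30. No library of the knockdown overlapped the control in any of the 8 genes, beside 58.9% of all genes tested.

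Of the interferon regulators of immunoproteasome genes 7 of 11 tested rose, 1 fell and 3 did not pass, with a median of 0.28. Beside this and the next list, 26.9% of all genes tested rose and 27.4% fell. IRF1, a transcription factor that binds the response element, averaged 86.9 ± 3.62 CPM in the knockdown and 67.3 ± 3.01 CPM in the control (SD, n = 3 each; log2 0.37). NLRC5, the activator of MHC class I genes, had 57.9, 57.6 and 57.1 CPM in the knockdown and 38.2, 37.3 and 41.0 CPM in the control (log2 0.57 ± 0.054 SE, adjusted p = 6.02e-15, edgeR). The receptor chain IFNGR1 (0.43) rose and STAT3 fell by 0.29 on the log2 scale. In the list of MHC class I peptide loading 14 of 15 genes rose, none fell and TAP2 did not pass (median 0.31), with HLA-B at 0.90, TAPBP at 0.47 and CANX at 0.31.

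**Figure D5:**
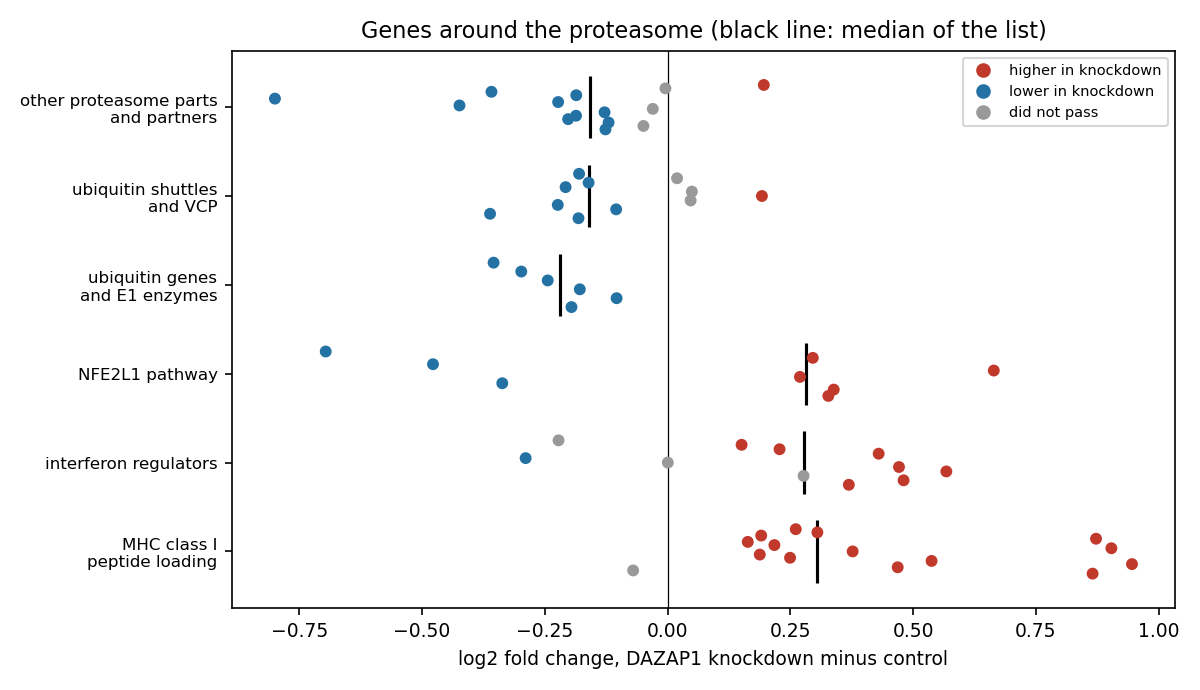
Log2 fold change, knockdown minus control (x axis), of the tested genes in 6 lists around the proteasome, 1 point per gene coloured by its call, with the median of each list as a black line. Medians run from −0.22 for ubiquitin genes and activating enzymes to 0.31 for MHC class I peptide loading.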

How the data were processed

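The authors deposited raw counts and FPKM for 30947 genes in 6 libraries. Per the submitters' processing notes, Bowtie and the build GRCh38.p13 were used, with no role or version. Not given in the sources used here are the counter, the annotation and the strand setting. The deposited FPKM were read as the same counts scaled to gene length and library total, with each gene's length derived from its counts and FPKM. Columns were matched to samples by prefix and replicate number.

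Counts were fitted in R 4.3.3 with edgeR 4.0.16 (filterByExpr with a minimum count of 10, TMM factors of 0.9874 to 1.013, robust quasi-likelihood F test, group as the only term), with Benjamini-Hochberg adjustment over 15374 genes. SE is the log2 fold change divided by the root of F. CPM use TMM-scaled totals. The fit was also run on simulated data in which all genes shared the same dispersion, so that run does not vouch for the calls made here. Exon overlap came from GENCODE 29 and promoters from RefSeq. The biological coefficient of variation was 3.13%, and libraries of a group differed by 1.86 to 2.78 times counting noise (chi-square per degree of freedom), so none was a duplicate. Alternatives were DESeq2 1.42.0, limma 3.58.1 (voom and log2 FPKM), other scalings and filters, a gene length trend removed, the replicate block and each library left out.

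The members and gene lists were chosen with earlier results of these data known. Values per library are given for PSMB5 to PSMB10, PSME1, PSME2 and, in each part of the complex, the 2 genes with the smallest adjusted p and the 1 with the largest change, and up to 4 genes of each other list with the smallest adjusted p are named, plus NFE2L1, IRF1, NLRC5 and TAP1. The library values of PSMA2, PSMD9 and PSMG2, the neighbouring and overlapping genes, and MAFG were chosen after values had been seen. Some genes that this rule would name are not reported here.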

Additional observations from a re-analysis of the deposited data

How the results depend on the processing

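Over 18 alternatives 24 to 29 proteasome genes were called lower and 6 to 9 higher. Leaving out each library in turn gave 28 to 29 lower and 6 to 8 higher, with 3911 to 4104 of all genes called lower and 3721 to 3905 higher. With the replicate block the counts were 29 lower and 8 higher, and 4206 and 4101 over all genes. The numbers did not pair the libraries, with correlations of 0.003, −0.001 and −0.006 between the deviations of same-numbered libraries. Paired by number, the log2 differences of the catalytic ratios were the same 0.72, 0.74 and 0.77, with an exact sign-flip p of 0.25, the smallest 3 pairs allow. Without 1 library they ran from 0.67 to 0.77, 0.69 to 0.79 and 0.66 to 0.84, and on other scales from 0.70, 0.72 and 0.71 upwards to the values reported. Of the genes called, PSMA1, PSMA3, PSMA5, PSMA7, PSMB4, PSMD1, PSMD11 and PSMG2 lost the call under at least 1 alternative, and the other 29 kept it under all 18. PSMC6 was called with upper-quartile scaling (log2 0.08, adjusted p = 0.0296, edgeR). Sign changes occurred only in genes that did not pass. PSMD14 was at 0.016 with upper-quartile scaling, 0.0028 with library size only and 0.0023, 0.0024 and 0.0023 with the 3 limma fits on log2 FPKM (pseudocount 1, 0.1, and 1 with a filter). PSMD6 was at 0.010 and PSMC1 at 0.0079 with upper-quartile scaling. PSMD7 was at −2.3e-05 with voom and ran from −0.025 to 0.041 without 1 library, with −0.025, −0.013 and −0.0042 for knockdown replicate 2, control replicate 2 and control replicate 3. PSMA2 ran from −0.12 without knockdown replicate 1 to 0.22 without control replicate 3, with −0.05 without control replicate 1. The cause of these changes was not tested. PSMA2, PSMA6 and PSMD9 had few counts, and their intervals were wide.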
